A study of Mus musculus with 22 samples.

Results

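The RNAi mutants were fully-grown germinal vesicle-intact (GV) oocytes of the genotype Mili-DAH/WT, Dicer-SOM/SOM (n = 2, animals of 17 and 13 weeks). They were set against heterozygous controls of the genotype Mili-DAH/WT, Dicer-SOM/WT (n = 4, animals of 36, 38, 10 and 17 weeks, called here controls 1o, 2o, 2 and 3). All came from C57BL/6 mice. Both groups carried 1 copy of the Mili DAH allele, which alters the catalytic site of the piRNA endonuclease MILI (gene Piwil2), and the controls carried 1 copy of Dicer SOM, so the comparison measured the loss of the remaining normal Dicer allele and not a mutant against an unaltered animal. These 6 samples are the members, chosen by genotype label, out of 22 samples in the series and 11 in the same paired-end run. The other 5 samples of that run were 4 double mutants, which carried both alleles on both chromosomes (Mili-DAH/DAH with Dicer-SOM/SOM), and 1 piRNA mutant (Mili-DAH/DAH with Dicer-SOM/WT). A separate single-end run held Dicer SOM/SOM (n = 3) and wild type (n = 3) oocytes without the Mili allele and shared no sample with the comparison.

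RNA interference (RNAi) starts when the RNase Dicer cuts long double-stranded RNA into small interfering RNAs (siRNAs), which guide Argonaute 2 to cleave RNAs that match them. Mouse oocytes are unusual among mammalian cells in running this pathway on their own transcripts, because a retrotransposon promoter inside the Dicer gene makes a short and more active Dicer form there. The double-stranded RNA comes from neighbouring genes read towards each other, from hairpins, and from antisense pseudogene copies that pair with the mRNA of their parent gene. The SOM allele adds an HA tag and lacks the introns at the 5′ end of the gene, the retrotransposon promoter among them, so it can make full-length Dicer but not the short oocyte form. It came from 1 embryonic stem cell line.

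Each library was made from a pool of oocytes, and its total count was 22928936 and 38414722 in the RNAi mutants and 25550498 to 41981837 in the controls. Levels are given as CPM, the count scaled to the size of the library, and 3 counts, the lowest number taken as a signal, equalled 0.0715 to 0.131 CPM in these libraries, a limit that covers counting error only. In every pair of libraries of 1 group the counts differed by more than counting error, with a chi-square per gene of 15.5 in the RNAi mutants and 18.8 to 98 in the controls. The libraries of a group came from animals of different ages, and the labels do not say how many animals each pooled, so p-values measure the spread between these libraries, differences in age included. The gene Gm42418, which overlaps ribosomal RNA, was at 4945 and 4698 CPM in the RNAi mutants and at 4844 and 4086 CPM in controls 1o and 3, but at 374 and 496 CPM in controls 2o and 2. All 15 markers of GV oocytes were detected, with summed levels of 14314 to 15166 CPM in RNAi mutants and 15629 to 17479 CPM in controls. These sums did not overlap, and 2 of the 15 markers, Mos and Kit, were called lower. Of 18 markers of granulosa and cumulus cells, which surround the oocyte, Tnfaip6 was at 0 in all 6 libraries, and the summed level was 108 to 111 CPM in RNAi mutants and 106 to 165 CPM in controls. Sums for B cell markers were 161 to 187 and 175 to 238 CPM (Igkc at 0 in all), those for endothelial markers 85.8 to 101 and 75.6 to 92.7 CPM, for erythroid markers 1.43 to 2.41 and 1.22 to 1.73 CPM, and for ovarian stroma 0.624 to 1.17 and 0.805 to 4.13 CPM. The macrophage sum, like that of GV oocytes, did not overlap, at 83.6 to 86.3 against 17.5 to 25.6 CPM. Of 8 markers 2 were called higher, C1qb and Cd68, while C1qa was at 0 in all 6 libraries. C1qc and Adgre1 did not pass 3 counts in any. Most of the macrophage sum was C1qb alone, at 78.2 and 75.6 CPM in RNAi mutants and 13.9 to 21.1 CPM in controls. Cd68 was at 6.01 and 5.26 against 1.33 to 2.25 CPM, and Csf1r at 1.82 and 2.63 against 2.13 to 2.89 CPM. Lyz2 was at 0 and 0.0271 against 0 to 0.713 CPM, and Ptprc at 0.216 and 0.0814 CPM against 0. The part of such cells in the results was not tested. Has2 of the granulosa list and Kdr of the endothelial list were called lower, and no gene of the B cell, erythroid or stroma lists was called.

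Dicer1, the gene that the SOM allele alters, was at 53.8 and 62.1 CPM in the RNAi mutants and at 680, 763, 502 and 614 CPM in controls 1o, 2o, 2 and 3. The RNAi mutants held 9.06% of the control mean, and the groups did not overlap. The log2 fold change was -3.46 ± 0.19 (SE, adjusted p = 6.26e-08), and the exact two-sided permutation test gave p = 0.133, the smallest value that 2 against 4 samples allow. Piwil2, which encodes MILI and carries the same single DAH copy in both groups, lay between 3.03 and 9.67 CPM in the controls and at 6.96 and 8.74 CPM in the RNAi mutants, within the control range (adjusted p = 0.615, exact permutation p = 0.533). The lowest Piwil2 levels, 3.03 and 4 CPM, were in the older controls. In the single-end run, without the Mili allele, Piwil2 was called higher in Dicer SOM/SOM than in wild type. Its means there were 11.1 and 4.73 CPM (1.25 ± 0.27, edgeR adjusted p = 0.00546). The difference between the runs was not called for Piwil2 (interaction contrast in edgeR, adjusted p = 0.754). B2m, a gene without siRNAs, and Hprt, to which the study scaled its qPCR, had log2 fold changes of -0.30 ± 0.21 and -0.08 ± 0.35 and were not called. The B2m values still did not overlap, at 16.9 and 14 CPM in RNAi mutants and 17 to 22.4 CPM in controls. In the single-end run B2m was called lower (-0.54 ± 0.13, edgeR adjusted p = 0.0112) and Hprt was not called (0.09 ± 0.14, adjusted p = 0.648).

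The question was which transcripts differ once the short Dicer form is lost while 1 working copy of Mili remains. Of 20989 tested genes, 1484 were called higher and 763 lower in RNAi mutants (10.7% of all tested genes, 7.07% higher and 3.64% lower), at an adjusted p under 0.05. The p-values came from edgeR (quasi-likelihood test, all 11 libraries of the run in 1 fit) and were adjusted over all tested genes by the Benjamini-Hochberg method. The median log2 fold change was 1.62 for genes called higher and -1.12 for genes called lower, and 218 genes rose and 32 fell by at least 3 log2 units. In all but 1 of the 2247 called genes the samples of the groups did not overlap, which held for 34.8% of all tested genes. The exception was Cpb2, named after its values were seen. Genes were also grouped by level, which was the control mean and so 1 side of the comparison. A gene under 1 CPM there had little room to be called lower and could pass the count filter through the mutants alone. Of genes under 1 CPM in controls 7.32% were called higher and 0.322% lower. Of genes over 100 CPM 5.06% were higher and 4.88% lower, with median log2 fold changes of 0.844 and -0.73. Under 1 CPM those medians were 2.53 and -3.85, and at 1 to 10 CPM 1.53 and -1.57, so over all called genes the larger median of the rises did not hold within the low levels. In bulk samples, fewer cells with a transcript and less of it in each cell cannot be told apart. Without RNAi mutant 1, a fit in which the other RNAi mutant is assumed to vary like the other groups called 845 genes higher and 212 lower, and without RNAi mutant 2 it called 818 and 220. With only the younger controls, 1028 genes were called higher and 403 lower.

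**Figure D1:**
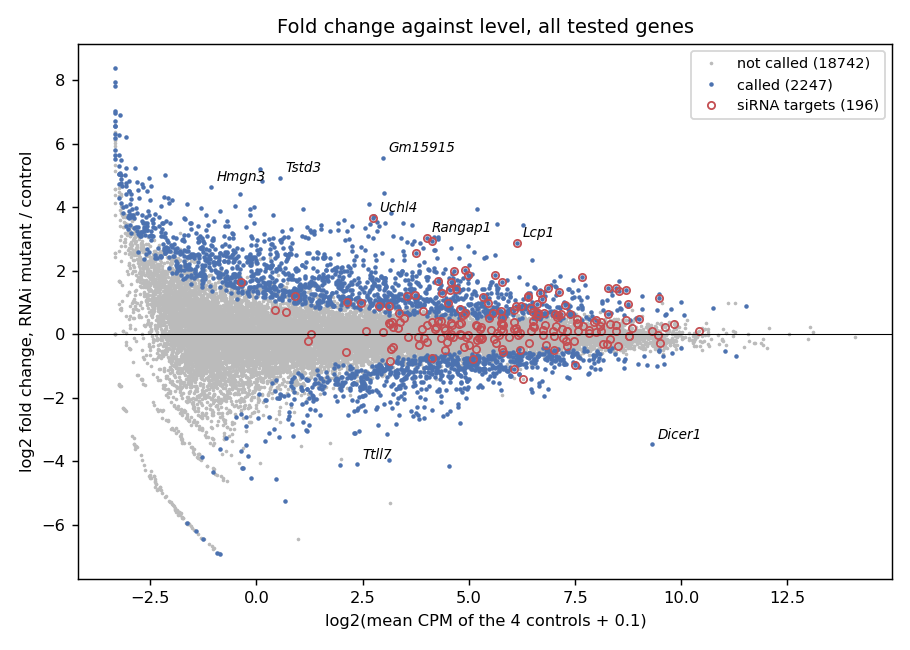
Log2 fold change between RNAi mutants (n = 2) and heterozygous controls (n = 4) against the log2 mean level of the controls (CPM plus 0.1), 1 point per tested gene, with called genes in blue, other genes in grey and siRNA targets circled in red. The 196 siRNA targets lie mostly above 0, with 62 called higher and 3 lower, and Dicer1 is the called gene of high level that fell furthest.

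Transcripts matched by siRNAs rose more often than tested genes as a whole. The list of 197 protein-coding genes with antisense siRNAs in oocytes was curated by the study from published small RNA sequencing, not from these libraries, and 196 of the genes were tested. Of these, 62 were called higher (31.6%, against 7.07% of all tested genes), 3 were called lower and 131 were not called. The median log2 fold change of the 196 genes was 0.26, and that of all tested genes -0.02. At least 2-fold rises were called for 32 of them. The 3 genes called lower, named after their values were seen, were Gfod1 (log2 fold change -1.11, adjusted p = 0.00333), Matr3 (-0.97, adjusted p = 0.0013) and the imprinted gene Usp29 (-0.77, adjusted p = 0.0162).

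The complementary RNA that could form double-stranded RNA with a target can be read from annotated transcripts, so the coding sequence of 4 targets that rose is shown where it is complementary to an RNA from another locus. Capitals mark bases that pair with the RNA named second, in an alignment without gaps, and lower case marks mismatches. The 60-base windows are on GRCm38, read 5′ to 3′ on the strand of the target, from GENCODE M21 transcripts, and span 1 exon in Coro1c and 2 exons in the others, at chr1:85642613-85642959 (plus strand) for Sp140, chr5:113865662-113865721 (minus strand) for Coro1c, chr9:107962869-107963336 (plus strand) for Traip and chr17:33875825-33881443 (minus strand) for Kifc1.
Sp140 with Arhgef12: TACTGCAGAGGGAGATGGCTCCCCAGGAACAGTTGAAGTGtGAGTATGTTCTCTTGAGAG
Coro1c with 2010001K21Rik: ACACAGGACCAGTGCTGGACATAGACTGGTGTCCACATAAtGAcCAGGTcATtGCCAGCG
Traip with Gm10857: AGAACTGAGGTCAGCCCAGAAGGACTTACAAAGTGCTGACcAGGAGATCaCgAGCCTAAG
Kifc1 with Arhgap20os: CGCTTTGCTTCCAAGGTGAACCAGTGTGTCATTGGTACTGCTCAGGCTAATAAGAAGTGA

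The paired stretches were long. Sp140 aligned with the antisense of Arhgef12 over 1236 bases at 98.5% identity, Coro1c with 2010001K21Rik over 1411 bases at 93.4%, Traip with Gm10857 over 1275 bases at 89.8%, and Kifc1 with Arhgap20os over 348 bases at 90.8%. The partners of these 4 targets were not called: Arhgef12 had a mean of 231 CPM in RNAi mutants and 284 in controls (adjusted p = 0.399), 2010001K21Rik 8.03 and 10.4 CPM (adjusted p = 0.416), Gm10857 152 and 209 CPM (adjusted p = 0.242) and Arhgap20os 794 and 535 CPM (adjusted p = 0.0601). The targets had log2 fold changes of 2.95, 1.86, 1.67 and 1.66. Oog4, an oocyte-specific gene whose transcript aligned in antisense with Khdc1a (427 bases, 91.3%) and Khdc1c (427 bases, 90.9%), was itself called higher. In all, 17 called targets had such a partner at a separate locus, and the partner was tested for 13 of them. It was called higher for 6 targets and not called for 7, while 7.07% of all tested genes were called higher. Oog4 counts for both Khdc1a and Khdc1c among the 6. The partners called higher included Gm5148 of Rps23 (2.85, adjusted p = 5.48e-06), Lrrc28 of Lgalsl (1.44, adjusted p = 2.55e-05), Adgrl3 of Ankrd28 (1.34, adjusted p = 0.00606) and Gm4961 of Kif2c (1.21, adjusted p = 0.000409). Gm5148 aligned with Rps23 over 427 bases at 100% identity, so without strand their reads in that stretch cannot be told apart. The rise of Gm5148, from 1.17 to 8.47 CPM, is thus not separate from that of Rps23.

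Over the whole list, 30 targets had an annotated complementary RNA of at least 100 bases and 85% identity from a separate locus, and 17 of these (56.7%) were called higher, with a median log2 fold change of 0.63. For 102 targets the complementary RNA belonged to an overlapping gene, and 28 of them (27.5%) were called higher, with a median of 0.235. Another 19 matched more than 20 genes, 7 of which (36.8%) were called higher, and 45 had no such RNA, with 10 (22.2%) called higher and a median of 0.15. The grouping was made after the fold changes were known, and no test was applied to it. Counting ignored strand, so for overlapping genes reads of the target and of its antisense partner cannot be told apart, and reads that map to several places were divided among them.

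**Figure D2:**
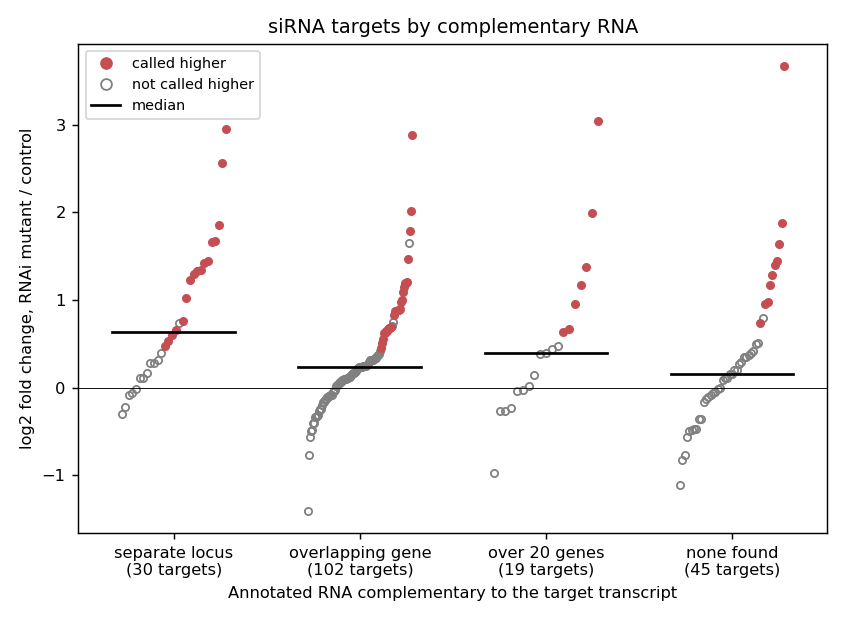
Log2 fold change of each siRNA target, grouped by the annotated RNA that is complementary to it, with filled points for targets called higher and a line at the median of each group. The 30 targets with a complementary RNA from a separate locus have a median of 0.63 and the 45 without one a median of 0.15, and each group holds both called and uncalled genes.

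Uchl4, a deubiquitinase gene, rose most among the siRNA targets, from 5.51, 4.93, 8.71 and 7.38 CPM in controls 1o, 2o, 2 and 3 to 87.9 and 81.4 CPM in RNAi mutants. Every RNAi mutant value was above every control value, with a log2 fold change of 3.67 ± 0.23 (adjusted p = 1.46e-07). Rangap1, the GTPase-activating protein of the nuclear transport GTPase Ran, went from 12.6 to 21.5 CPM in controls to 124 and 138 CPM (log2 fold change 3.04 ± 0.19, adjusted p = 1.81e-07). Sp140, a nuclear body protein with a bromodomain, was at 15.2 to 21.4 CPM in controls and at 141 and 128 CPM in RNAi mutants (2.95 ± 0.15, adjusted p = 2.37e-08). Lcp1, the actin-bundling protein L-plastin, was the most abundant of the 8 in RNAi mutants, at 504 and 530 CPM against 69.6, 73, 50.5 and 88.8 CPM in controls (2.88 ± 0.19, adjusted p = 2.82e-07).

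Rps23, a protein of the small ribosomal subunit, had 87.9 and 69.9 CPM in RNAi mutants and 10.3 to 15.7 CPM in controls, a log2 fold change of 2.56 ± 0.22. The mitochondrial S-adenosylmethionine carrier Slc25a26 had 128 and 115 CPM against 25.1 to 41.4 CPM (2.02 ± 0.19), and Ppia, which encodes cyclophilin A, 107 and 93.1 CPM against 19.7 to 31.1 CPM (1.99 ± 0.17). Both Rps23 and Ppia have processed copies elsewhere in the genome that may share their reads. Optn, an autophagy receptor, had the largest standard error of the 8 targets, at 93.7 and 137 CPM in RNAi mutants and 23.7 to 35.7 CPM in controls (1.88 ± 0.27, adjusted p = 4.41e-04). Hdac1, a histone deacetylase that was not on the list, was at 57.7 and 66.3 CPM against 8.56 to 14.6 CPM (2.49 ± 0.20, adjusted p = 3.19e-06). None of these 9 genes lost its call in any alternative fit run, including those without 1 of the 6 libraries.

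**Figure D3:**
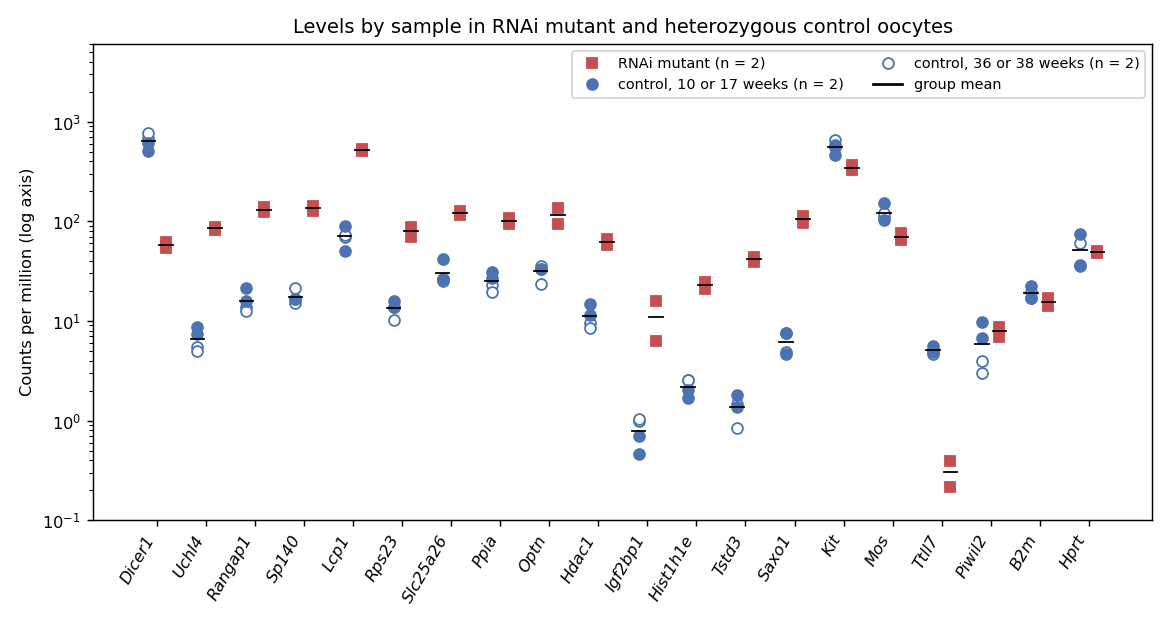
Level of 20 genes in each sample, in CPM on a log axis, with squares for RNAi mutants (n = 2), filled circles for controls of 10 or 17 weeks (n = 2), open circles for controls of 36 or 38 weeks (n = 2) and bars for group means. Dicer1 lies near 58 CPM in RNAi mutants and 640 in controls, the siRNA targets Uchl4 to Optn lie higher in both RNAi mutants than in every control, and Piwil2 and Hprt overlap between groups.

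Of 20 genes of the small RNA machinery (nucleases, Argonautes and their partners), 2 were called, a share of 10% against 10.7% of all tested genes. Dicer1 fell and 1 rose, Tsnax, whose protein forms the C3PO endonuclease with translin. Tsnax was at 388 and 430 CPM in RNAi mutants and at 111 to 152 CPM in controls, which did not overlap (log2 fold change 1.67 ± 0.15, adjusted p = 8.45e-06). Of 24 tested genes of the piRNA pathway 1 was called (4.17%), Mael, which encodes a protein needed for transposon silencing in germ cells, at 101 and 90.3 CPM against 51.9 to 73.4 CPM (0.66 ± 0.19, adjusted p = 0.043). The Mael call was lost without RNAi mutant 1 (adjusted p = 0.293), RNAi mutant 2 (0.141), control 1o (0.0989), control 2 (0.0574) or control 3 (0.0986), and with the younger controls alone (0.0826). The median log2 fold change was -0.05 for the small RNA machinery and -0.11 for the piRNA pathway.

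Among 51 tested genes for spindle, kinetochore and cohesin proteins, 7 were called higher (13.7%, against 7.07% of all tested genes) and none lower, with a median log2 fold change of 0.04. All 5 siRNA targets of the list, Kifc1, Prc1, Kif4, Kifc5b and Kif2c, were among the 7, and of the other 46 genes 2 were called higher (4.35%). Kifc1, a minus-end-directed kinesin, was at 72.7 and 77.5 CPM against 20.9 to 27.6 CPM in controls (1.66 ± 0.15, adjusted p = 6.05e-06). Stag3, a meiotic cohesin subunit, had 11.5 and 12.1 CPM against 3.88 to 5.2 CPM (1.39 ± 0.21, adjusted p = 5.04e-04). Prc1, which bundles antiparallel microtubules, was at 1085 and 1087 CPM against 403 to 437 CPM (1.38 ± 0.11, adjusted p = 3.47e-06). The remaining gene called, besides those named, was Bub1.

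The tubulin genes Tuba1a, Tuba1b and Tuba1c rose by similar amounts. Tuba1a was at 67.5 and 69.8 CPM in RNAi mutants and 20.1 to 32.5 CPM in controls (1.42 ± 0.19), Tuba1b at 239 and 264 against 81.4 to 121 CPM (1.30 ± 0.17), and Tuba1c at 343 and 359 against 110 to 163 CPM (1.33 ± 0.16). All are siRNA targets and so closely alike in sequence that reads may have been divided among them. Of 14 tested alpha and beta tubulins 4 were called higher (28.6%, against 7.07% of all tested genes), the other being Tubb5, and 1 lower, Tuba3b. For kinesins the share called higher was 13.5%. Of 37 kinesins 5 were called higher, and 1, Kif28, was called lower at 0.519 and 0.543 CPM against 1.1 to 2.33 CPM (-1.68 ± 0.43, adjusted p = 0.0214), a call that was lost without RNAi mutant 1 (adjusted p = 0.163) or RNAi mutant 2 (0.168). The chromokinesin Kif4 was abundant, at 1401 and 1744 CPM against 623 to 764 CPM (1.15 ± 0.15, adjusted p = 1.44e-04), and its gene overlaps the antisense gene Pdzd11 over 684 transcript bases. Pdzd11 was called higher as well (0.90 ± 0.15), and without strand their reads cannot be told apart.

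The largest rises among named genes with at least 5 CPM were in Tstd3, Hmgn3, Saxo1, Slco2b1, Gpihbp1, B4galnt2, L3hypdh and Pmaip1, with log2 fold changes of 3.87 to 4.93. Tstd3, a gene of the rhodanese-like sulfurtransferase family, was at 0.836, 1.47, 1.8 and 1.36 CPM in controls 1o, 2o, 2 and 3 and at 44.1 and 38.9 CPM in RNAi mutants, 30.4-fold more on the means (4.93 ± 0.23, adjusted p = 1.60e-08). Hmgn3, a nucleosome-binding protein gene, had 9.38 and 9.09 CPM against 0.148 to 0.567 CPM (4.64 ± 0.36, adjusted p = 1.93e-06). Saxo1, a microtubule-stabilizing protein of cilia and flagella, had 95.7 and 114 CPM against 4.66 to 7.61 CPM (4.09 ± 0.30, adjusted p = 9.27e-07). B4galnt2, a glycosyltransferase, had 33.9 and 29.3 CPM against 1.67 to 2.5 CPM (3.95 ± 0.20, adjusted p = 2.42e-08). None of these 8 is on the siRNA target list. Among genes known only by a predicted or clone name, the antisense gene Gm15915 rose furthest, from 6.64 to 8.81 CPM to 339 and 386 CPM (5.55 ± 0.15, adjusted p = 7.28e-11). It was followed by Gm16028, 1700028P14Rik, AC133103.1 and Gm19585, at 5.20 to 4.41.

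The largest falls were in Olfr1300-ps1, Ttll7, Olfr214, Dicer1, Nyap2, Ebf2, Ddx60 and Cldn34d, with log2 fold changes of -4.16 to -2.80. Ttll7, a tubulin polyglutamylase, was at 0.389 and 0.217 CPM in RNAi mutants and at 4.67, 5.13, 4.83 and 5.63 CPM in controls (-4.10 ± 0.51, adjusted p = 1.26e-04). Olfr1300-ps1, an olfactory receptor gene annotated as a polymorphic pseudogene, had 0.822 and 1.66 CPM against 16.5 to 28.5 CPM (-4.16 ± 0.48, adjusted p = 6.54e-05), and Olfr214, another olfactory receptor gene, 0.649 and 0.461 CPM against 7.14 to 11 CPM (-3.97 ± 0.69, adjusted p = 0.00176). Ebf2, a transcription factor, had 0.778 and 1.14 CPM against 5.66 to 8 CPM (-2.87 ± 0.37, adjusted p = 1.78e-04). The neuronal adaptor gene Nyap2 differed among controls, at 2.56 and 3.07 CPM in the older and 7.74 and 7.57 CPM in the younger ones, and its call (-3.06 ± 0.81, adjusted p = 0.0258) was lost without RNAi mutant 2 (adjusted p = 0.266), control 2 (0.0543) or control 3 (0.051). The helicase gene Ddx60 had 0.865 and 1.79 CPM against 5.51 to 14.4 CPM (-2.84 ± 0.63, adjusted p = 0.00925), and its call was lost without RNAi mutant 1 (adjusted p = 0.134). Gm29999, Gm31452 and Gm47871 fell furthest among predicted genes, with log2 fold changes of -3.15, -2.56 and -2.26, and the calls of the last 2 were lost without RNAi mutant 2 (adjusted p = 0.144 and 0.105) and that of Gm47871 also without RNAi mutant 1 (0.067).

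Ranked by the difference in mean CPM, the called genes were abundant transcripts. Foxj3, a forkhead transcription factor, was at 2037 and 2062 CPM against 929 to 1107 CPM (1.02 ± 0.12, adjusted p = 6.54e-05), and Oog4 at 1647 and 1729 against 553 to 802 CPM (1.25 ± 0.19, adjusted p = 7.13e-04). The falls in amount were led by D10Wsu102e, at 1534 and 1599 CPM against 2064 to 2881 CPM, and Gatad2b, a subunit of the NuRD chromatin complex, at 1345 and 1537 against 1795 to 2363 CPM. Lrp6, a Wnt co-receptor, was at 400 and 415 CPM against 678 to 980 CPM (-0.93 ± 0.19, adjusted p = 0.0059), and Kbtbd7, a cullin-3 adaptor, at 353 and 337 against 582 to 763 CPM (-0.99 ± 0.14, adjusted p = 4.39e-04). Of these, Kbtbd7, Foxj3 and Oog4 kept their calls without any 1 library. Calls were lost without RNAi mutant 1 or 2 for D10Wsu102e (adjusted p = 0.14 and 0.133), Gatad2b (0.211 and 0.0824) and Lrp6 (0.0673 and 0.0659), for Gatad2b also without control 1o (0.0511), and for D10Wsu102e and Gatad2b also with the younger controls alone (0.0868 and 0.127).

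Of 30 genes of meiotic arrest and resumption 4 were called higher and 1 lower (16.7% called, against 10.7% of all tested genes). Mos, the kinase upstream of the MAP kinase cascade in maturing oocytes, was at 76 and 64.5 CPM against 102 to 154 CPM (-0.79 ± 0.19, adjusted p = 0.0165). Prkar2a, a regulatory subunit of protein kinase A, was at 243 and 281 against 143 to 198 CPM (0.66 ± 0.14, adjusted p = 0.00809), and the phosphatase gene Cdc14b at 50.7 and 39 against 17.2 to 28.9 CPM (1.03 ± 0.20, adjusted p = 0.00457). Of 17 oocyte transcription factors only Sebox, a homeobox gene, was called (5.88%), at 20.9 and 25.4 CPM against 37.7 to 44.8 CPM (-0.85 ± 0.17, adjusted p = 0.00484). Of 20 zona, fertilization and paracrine genes only the receptor tyrosine kinase gene Kit was called (5%), at 326 and 364 CPM against 457 to 651 CPM (-0.69 ± 0.16, adjusted p = 0.0114). Calls were lost without RNAi mutant 1 for Cdc14b (adjusted p = 0.113) and Sebox (0.0996), without RNAi mutant 2 for Prkar2a (0.142), and without either for Mos (0.074 and 0.206) and Kit (0.127 and 0.0705). The Kit call was also lost with the younger controls alone (0.0698).

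Of 11 genes of the subcortical maternal complex and its relatives, Khdc1a and Khdc1c were called higher, both siRNA targets of the KH domain family. The share called higher was 18.2%, against 7.07% of all tested genes. Khdc1a was at 925 and 1014 CPM against 305 to 389 CPM (1.45 ± 0.12), and Khdc1c at 866 and 1007 against 357 to 383 CPM (1.34 ± 0.12), and the paralogs may share reads. Of 20 genes for mRNA storage 1 was called (5%, against 10.7% of all tested genes). It was Nanos1, a translational repressor, at 28 and 27.3 CPM against 35 to 62.5 CPM (-0.84 ± 0.23, adjusted p = 0.0324). That call was lost without RNAi mutant 1 (adjusted p = 0.183), RNAi mutant 2 (0.216), control 2o (0.0589), control 2 (0.0574) or control 3 (0.0566). None of 26 mRNA decay genes was called.

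**Figure D4:**
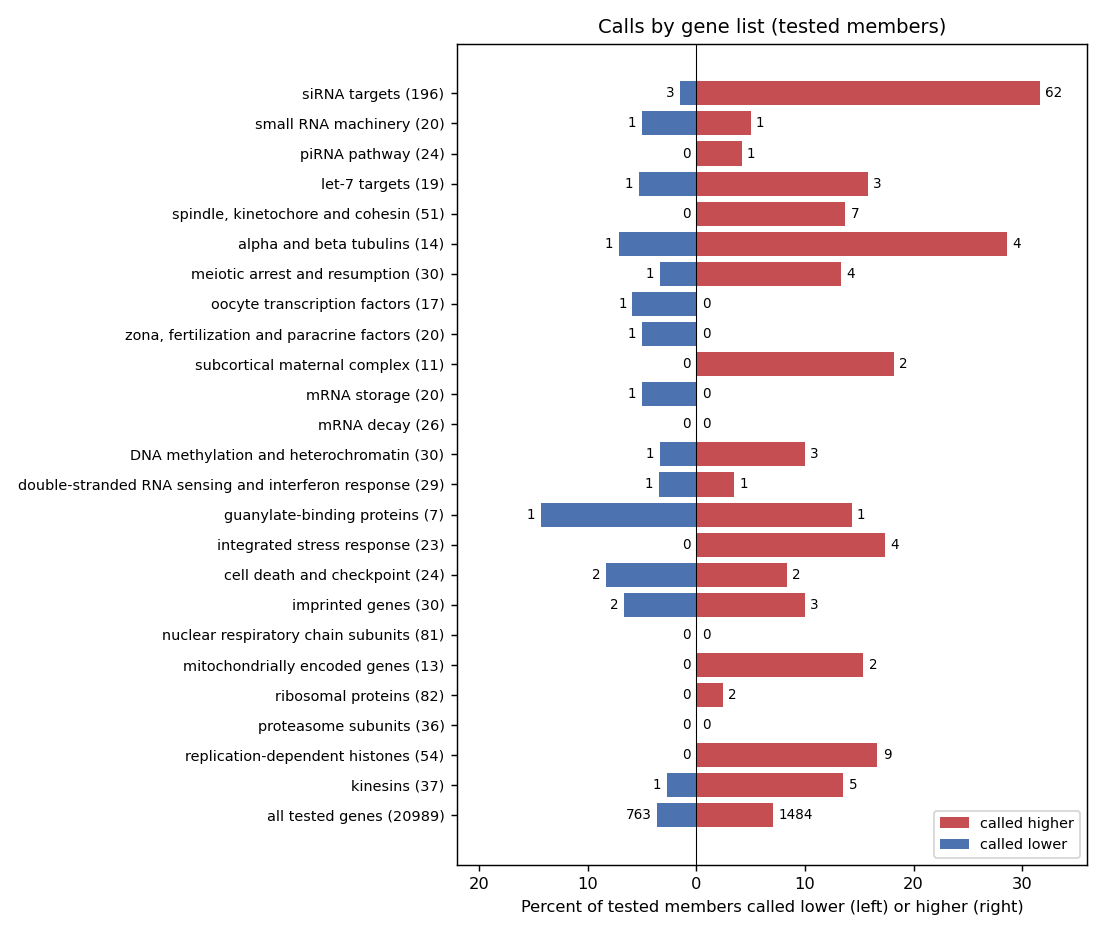
Percent of the tested members of each gene list that were called higher (red, right) or lower (blue, left) in RNAi mutants, with the number of called genes at each bar and the number tested in brackets. The bar for siRNA targets reaches 31.6% and that for all tested genes 7.07%, and the mRNA decay, nuclear respiratory chain and proteasome lists have no call.

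Sensors of double-stranded RNA were of interest because uncut duplexes can set off an interferon response in somatic cells. Of 29 tested genes of double-stranded RNA sensing and interferon response, 1 was called higher and 1 lower (6.9% called, against 10.7% of all tested genes). The median log2 fold change was 0.03. Oas3, which makes oligoadenylate in response to double-stranded RNA, was at 40.9 and 38.3 CPM against 9.46 to 12 CPM (1.91 ± 0.16, adjusted p = 4.60e-06). Ddx58, which encodes the sensor RIG-I, was at 12.5 and 10.5 CPM against 20.1 to 25.9 CPM (-1.05 ± 0.22, adjusted p = 0.00624), a call lost without RNAi mutant 2 (adjusted p = 0.116). Of 7 guanylate-binding proteins Gbp7 was called higher (adjusted p = 0.0167) and Gbp8 lower (adjusted p = 0.0104), a share of 28.6% against 10.7% of all tested genes. The Gbp7 call was lost without RNAi mutant 1 (adjusted p = 0.0608) or 2 (0.183), that of Gbp8 without RNAi mutant 2 (0.113), and both with the younger controls alone (0.113 and 0.0585).

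Of 23 tested genes of the integrated stress response, which raises amino acid synthesis and transport under stress, 4 were called higher and none lower. The share called higher was 17.4%, against 7.07% of all tested genes, and the median log2 fold change was 0.42. Asns, which encodes asparagine synthetase, was at 16 and 8.71 CPM against 1.01 to 2.43 CPM (3.08 ± 0.46, adjusted p = 5.50e-04). Vldlr, a lipoprotein receptor, was at 9.04 and 11.3 CPM against 2.36 to 6.47 CPM (1.48 ± 0.36, adjusted p = 0.0152), and its call was lost without RNAi mutant 1 (adjusted p = 0.0592) or 2 (0.157). The hormone gene Fgf21 had 50 and 22 counts in the RNAi mutants, or 2.16 and 0.597 CPM, and 0, 1, 0 and 0 counts in controls 1o, 2o, 2 and 3 (adjusted p = 3.16e-04). In the single-end run the median of this list was 0.01. Of 24 genes of cell death and checkpoints 2 were called higher and 2 lower (16.7% called, against 10.7% of all tested genes). Pmaip1, which encodes the pro-apoptotic BH3 protein NOXA, was at 6.1 and 7.19 CPM against 0.25 to 0.933 CPM (3.87 ± 0.49, adjusted p = 1.52e-04). Bcl2l11, which encodes the BH3 protein BIM, was at 26.5 and 44.5 CPM against 59.3 to 70.9 CPM (-0.85 ± 0.22, adjusted p = 0.0212), and Apaf1, the scaffold of the apoptosome, at 3.03 and 5.59 against 8.24 to 11.2 CPM (-1.21 ± 0.28, adjusted p = 0.0115). The called pro-apoptotic genes included both a rise and falls. The calls of Bcl2l11 and Apaf1 were lost without RNAi mutant 1 (adjusted p = 0.279 and 0.178), that of Bcl2l11 also with the younger controls alone (0.12).

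Replication-dependent histone genes, whose mRNAs end in a stem-loop instead of a poly(A) tail, leaned upwards. Of 54 tested, 9 were called higher (16.7%, against 7.07% of all tested genes) and none lower. The median log2 fold change was 0.71, with 0.69 in the single-end run. The linker histone gene Hist1h1e was at 24.7 and 21 CPM against 1.67 to 2.53 CPM (3.37 ± 0.23, adjusted p = 4.13e-07). Hist2h2bb was at 1.73 and 1.36 CPM against 0.233 to 0.394 CPM (2.19 ± 0.45, adjusted p = 0.0059), and Hist1h4d at 12.9 and 5.72 CPM against 0.854 to 4.19 CPM (2.19 ± 0.48, adjusted p = 0.00851). The calls of Hist2h2bb (adjusted p = 0.0719) and Hist1h4d (0.211) were lost without RNAi mutant 1, and that of Hist1h4d also with the younger controls alone (0.0873). Copies of these genes are close in sequence and can share reads.

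Of 30 genes of DNA methylation and heterochromatin 3 were called higher and 1 lower (13.3% called, against 10.7% of all tested genes). Pphln1, which encodes periphilin of the HUSH silencing complex, was at 735 and 811 CPM against 311 to 360 CPM (1.22 ± 0.13, adjusted p = 3.90e-05). Tet2 (0.97 ± 0.28, adjusted p = 0.0419) and Tet1 (-0.72 ± 0.21, adjusted p = 0.0459), both genes for 5-methylcytosine dioxygenases, moved in opposite directions. Both calls were lost without RNAi mutant 1 (adjusted p = 0.294 and 0.248) or 2 (0.126 and 0.247), without control 2 (0.0846 and 0.0559) or control 2o (0.091 and 0.0981), and that of Tet1 also without control 3 (0.0703), with no filter on low counts (0.11) and with only the 6 samples in the fit (0.0612). With the younger controls alone they had adjusted p-values of 0.142 and 0.122. Of 30 tested imprinted genes 3 were called higher and 2 lower (16.7% called, against 10.7% of all tested genes). Phlda2, a growth-restraining gene, was at 8.22 and 9.33 CPM against 3.45 to 6.3 CPM, Cdkn1c, an inhibitor of cyclin-dependent kinases, at 17.9 and 18.8 against 8.27 to 13.9 CPM, and the noncoding RNA Kcnq1ot1 at 3.37 and 3.93 against 5.78 to 9.9 CPM. All lie in the same imprinted region of chromosome 7. Their adjusted p-values were 0.0417, 0.0282 and 0.0115, and each call was lost without RNAi mutant 1 (0.145, 0.148 and 0.137) or 2 (0.263, 0.189 and 0.0806). That of Phlda2 was also lost without control 1o (0.0935), 2 (0.0815) or 3 (0.0919), and that of Cdkn1c without control 1o (0.0731), 2o (0.0595) or 2 (0.0593) and with the younger controls alone (0.174).

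Nuclear genes for the respiratory chain, the proteasome and the ribosome showed few or no calls (0%, 0% and 2.44%, against 10.7% of all tested genes). None of 81 tested nuclear genes for respiratory chain subunits and none of 36 proteasome subunit genes was called, with median log2 fold changes of -0.06 and 0.11. Of 82 ribosomal protein genes 2 were called higher, Rps23 and Rps6, the latter at 94.3 and 85.3 CPM against 47.8 to 66.2 CPM (0.74 ± 0.15, adjusted p = 0.00561), a call lost without RNAi mutant 1 (adjusted p = 0.114) or with the younger controls alone (0.0643). Of 13 mitochondrially encoded genes 2 were called higher (15.4%, against 7.07% of all tested genes). They were mt-Co1, a subunit of cytochrome c oxidase, at 2825 and 3251 CPM against 1313 to 1865 CPM (0.82 ± 0.17, adjusted p = 0.00501), and mt-Nd1 at 714 and 619 against 274 to 442 CPM (0.83 ± 0.18, adjusted p = 0.00891). The mt-Co1 call was lost without RNAi mutant 2 (adjusted p = 0.0887) and the mt-Nd1 call without RNAi mutant 1 (0.142) or with the younger controls alone (0.0533). In the single-end run mt-Co1 had a log2 fold change of -0.04 ± 0.23 and was not called.

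Dicer also makes microRNAs. The paper states that the full-length Dicer left in Dicer-SOM/SOM oocytes seems to keep microRNAs in production, though not efficient RNAi. Small RNAs were not measured in these libraries, so a change in microRNA levels was not tested. Targets of the let-7 family were examined, since let-7 is the family with the best-known targets among those made in oocytes. The members share bases 2 to 8, the seed that pairs with target mRNAs, shown in capitals in the mature sequences from RefSeq (GRCm38.p6).
let-7a-5p: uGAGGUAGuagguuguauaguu
let-7b-5p: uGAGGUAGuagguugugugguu
let-7c-5p: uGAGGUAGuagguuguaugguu
let-7g-5p: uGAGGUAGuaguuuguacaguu
let-7i-5p: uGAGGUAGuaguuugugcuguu

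Of 19 tested let-7 targets 3 were called higher and 1 lower (21.1% called, against 10.7% of all tested genes), with a median log2 fold change of -0.01. Igf2bp1, an mRNA-binding protein gene with 4 matches to the seed in its 3′ UTR, was at 15.7 and 6.29 CPM against 0.466 to 1.03 CPM (3.76 ± 0.39, adjusted p = 2.32e-05). Hmga2, a chromatin architectural protein with 4 matches, was at 115 and 112 CPM against 65.7 to 69.4 CPM (0.76 ± 0.16, adjusted p = 0.0066). Trim71, with 4 matches, was the remaining rise (0.62, adjusted p = 0.0177), and Lin28b, also with 4, had 0.03 (adjusted p = 0.939). Hmga2 and Trim71 are siRNA targets too. The Hmga2 call was lost without RNAi mutant 1 (adjusted p = 0.0763) or 2 (0.0567) and with the younger controls alone (0.0554).

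Over 14674 protein-coding genes with an annotated 3′ UTR, the letters CTACCTC, which pair with the let-7 seed, stood on the mRNA strand of 10.6% of genes called higher, 13.9% of genes called lower and 9.85% of all. The corresponding shares were 22.4%, 29.6% and 23.5% for TGCTGCT, which pairs with the seed of miR-16, and 15.2%, 24.8% and 15.7% for TGTTTAC, which pairs with that of miR-30a. Genes called lower had longer 3′ UTRs, with a median of 1884 bases against 1072 for genes called higher and 1100 for all, and a longer sequence holds any 7 letters more often. The difference in length stood at the higher levels. Among genes of 10 to 100 CPM in controls, the medians were 2012 bases for 334 genes called lower, 1243 for 330 called higher and 1157 for 4628 not called, and among genes over 100 CPM they were 2593, 1611 and 1560. In the single-end run, which used other samples, the medians of genes of 10 to 100 CPM were 1559, 1152 and 1094 bases. Over 100 CPM they were 2124, 1781 and 1403 bases there, so genes called higher also had longer 3′ UTRs than genes not called. Under 1 CPM genes called lower had the shortest ones there, with medians of 680, 804 and 822 bases. At 1 to 10 CPM the difference was small there, with 994 bases for genes called lower, 967 for genes called higher and 910 for genes not called, and in the paired-end run the medians at that level were 1220, 1021 and 910 bases.

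By annotation, 1047 of 15047 protein-coding genes were called higher and 612 lower (6.96% and 4.07%). Processed pseudogenes, which are copies of mRNAs and can give antisense RNA, were higher in 126 of 1619 (7.78%, against 7.07% of all tested genes) and lower in 16 (0.988%, against 3.64%). Their median control level was 0.772 CPM, against 9.95 CPM for protein-coding genes. Of all tested genes under 1 CPM in controls, 0.322% were called lower, so the share of falls is not separate from the low level. For long intergenic RNAs the counts were 125 higher and 60 lower of 1326 (9.43% and 4.52%), and for antisense RNAs 50 and 25 of 1048 (4.77% and 2.39%). Pseudogenes can share reads with their parent genes, and the counts of the pair cannot then be told apart. Among chromosomes, X held 81 genes called higher of 780 (10.4%) with a median log2 fold change of 0.10, chromosome 1 held 136 of 1403 (9.69%), and chromosome 19 had the lowest share, 26 of 607 (4.28%).

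The single-end run compared Dicer SOM/SOM with wild type in other libraries, from animals without the Mili allele. There, 6627 of 23151 tested genes were called between Dicer SOM/SOM and wild type (28.6%). Of the 2216 genes called in RNAi mutants and tested there, 2176 had the same sign (98.2%, against 70.2% of the 17873 genes not called here), and 1847 were called in the same direction, which is 83.3% of the former and 29.8% of the 6195 genes called in the single-end run among those tested in both. The 62 siRNA targets called higher included 58 that were called higher there too. The sizes were also close, with a median size of log2 fold change of 1.41 here and 1.36 there. One gene, Rpusd2, named after its values were seen, was called in opposite directions.

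The difference between the log2 fold changes of the runs, tested with an interaction contrast in edgeR, was called for 1 of 23454 genes (0.00426%), while 1839 genes had an unadjusted p under 0.05 and DESeq2 called 79. The gene was Tnfrsf21, a death receptor named for this call, at 4.32 and 4.94 CPM in RNAi mutants and 5.4 to 8.3 CPM in controls, and at a mean of 2.34 ± 0.609 (SD, n = 3) in Dicer SOM/SOM and 23.6 ± 5.26 (SD, n = 3) in wild type. Its log2 fold changes were -0.61 and -3.29, a difference of 2.71 ± 0.35 (adjusted p = 0.0385). The call was lost without wild type replicate 1 (adjusted p = 0.142) or 2 (0.142), RNAi mutant 1 (0.0582) or 2 (0.621), control 1o (0.0505) or control 3 (0.0816), and with the younger controls alone (0.072). Dicer1 differed by 0.91 ± 0.22 (adjusted p = 0.337), with a mean of 1020 CPM in wild type oocytes, which carry no SOM allele. The single-end library Dicer SOM/SOM 3 held 6468380 counts, and without it 6 genes were called for the difference, while 41 were called without Dicer SOM/SOM 2.

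**Figure D5:**
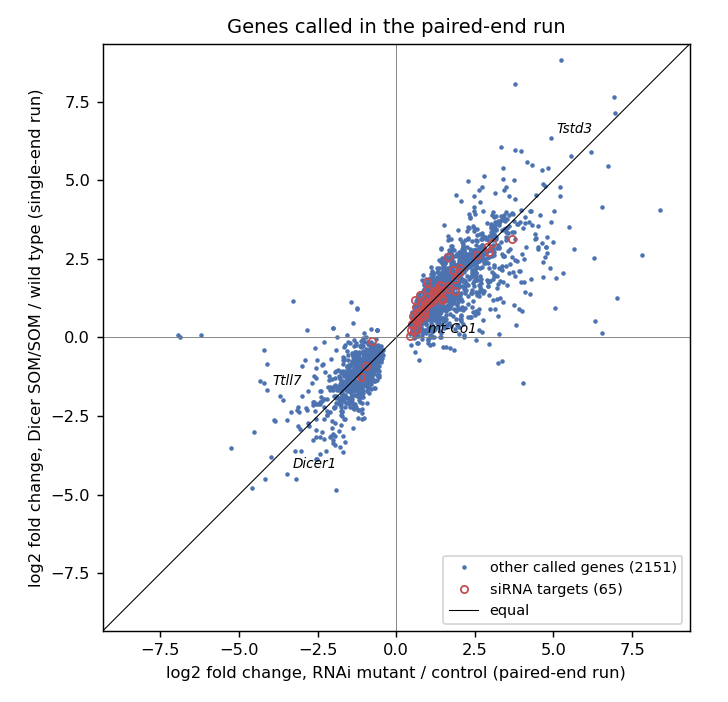
Log2 fold change in the single-end run (Dicer SOM/SOM against wild type) against that in the paired-end run (RNAi mutant against control) for the 2216 genes called in the paired-end run and tested in both, with siRNA targets circled and a line where the values are equal. Most points lie at the lower left and upper right, 2176 of them with the same sign in both runs, and mt-Co1 lies near 0 on the vertical axis.

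The double mutants and the piRNA mutant were compared with the same controls, so their values are given side by side without a test. Dicer1 had a mean of 57.7 CPM in double mutants, 58 CPM in RNAi mutants and 596 CPM in the piRNA mutant, against 640 CPM in controls. Rangap1 had 128, 131 and 13.8 CPM in the same order, Tstd3 43.1, 41.5 and 0.278 CPM, and Lcp1 336, 517 and 47 CPM. Cdc14b stood apart with 186 ± 28.7 CPM (SD, n = 4) in double mutants, 44.8 ± 8.29 (SD, n = 2) in RNAi mutants, 28 in the piRNA mutant and 22 ± 5.03 (SD, n = 4) in controls. Cldn34d, a claudin family gene on the X chromosome, had its lowest value of the groups of this run in RNAi mutants, at a mean of 4.02 CPM against 23.5 in double mutants, 65.2 in the piRNA mutant and 27.8 in controls.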

How the data were processed

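RNA from pooled GV oocytes was amplified and sequenced without strand information. The authors aligned reads with STAR 2.5.3a to GRCm38/mm10 and counted them over GENCODE M15 genes with featureCounts, ignoring strand and dividing reads that map to several places or genes, and deposited estimated counts, which were rounded to whole numbers here. Of 52636 gene IDs, 52489 matched GENCODE M21 names. The deposited table of retrotransposon groups was not used here. Dicer dMT samples of the single-end run entered its fit and are not described.

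All 11 samples of the run entered 1 edgeR 4.0.16 quasi-likelihood fit (R 4.3.3, TMM scaling, genes with a minimum count of 10 and a total of 15), with Benjamini-Hochberg adjustment and calls at an adjusted p under 0.05. CPM use TMM library sizes. DESeq2 1.42.0 was an alternative. Complementary transcripts were found with blastn 2.17.0. The fit was tested on simulated counts.

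Genes named were Dicer1, Piwil2 and qPCR genes of the study, the 8 largest rises and falls with at least 5 CPM and no overlap, the 5 largest differences in CPM, up to 3 called members per list, the 8 largest rises among siRNA targets, and 5 rises and 3 falls among predicted genes. Others are said to be chosen after their values were seen, or belong to a list's calls, its marker genes or a complementary pair. Some genes that meet the rule are not reported here. Members and lists were chosen with earlier results of these data known.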

Additional observations from a re-analysis of the deposited data

Results flagged for a closer look

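Among the 85 named genes, the control group of 4 libraries was tested for 1 library far from the other 3 by Dixon's gap test at the 95% level, and 6 genes had such a library. Chance gives about 1 in 20 groups. Control 2o held 4 of them: mt-Co1 at 1313 CPM against 1840 to 1865 CPM in the others, Lrp6 at 980 CPM, Phlda2 at 6.3 CPM and Fgf21 at 0.0333 CPM, which is 1 count against 0 in the others. Control 2 held the other 2, Rps6 at 66.2 CPM and Slc25a26 at 41.4 CPM. Controls 2o and 2 are also the libraries with low Gm42418, and whether these values are related was not tested.

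The change of Tnfrsf21 differed between the runs by 2.71 on the log2 scale in the interaction contrast.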

How the results depend on the processing

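No alternative reversed the direction of a named gene. Genes called lower numbered 763 in the fit reported, 1265 with DESeq2, 403 with the younger controls only, 1262 at an adjusted p under 0.1 and 459 with at least 1 log2 unit. The median of the siRNA targets was 0.223 with a term for age. Leaving out 1 library gave 818 to 1477 genes called higher, 212 to 853 lower, 40 to 64 siRNA targets higher, siRNA target medians of 0.234 to 0.26, 4983 to 6368 calls in the single-end run, 0 to 41 genes called for the difference between runs, and Dicer1 at 8.41% to 9.71% of controls. Dicer1 was at 10.4% with the younger controls only. The difference between runs was called for 79 genes with DESeq2 and 5 with the younger controls only. The cause of these shifts was not tested. The fits that left out libraries also had fewer samples.

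With only the controls over 1000 CPM of Gm42418, a setting chosen after seeing the data, 1136 genes were called higher, 534 lower and 53 siRNA targets higher, and calls were lost for Apaf1 (adjusted p = 0.0548), Bcl2l11 (0.0696), Cdkn1c (0.155), Gbp7 (0.104), Mos (0.0719), Nanos1 (0.152), Nyap2 (0.07), Tet1 (0.171) and Tet2 (0.22). A term for age ended the calls of Cdkn1c (0.0761), Gatad2b (0.0605), Mael (0.0501), Phlda2 (0.0811), Tet1 (0.0791), Tet2 (0.105) and Vldlr (0.0513).

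No paired analysis was possible because RNAi mutants and controls share fewer than 2 replicate numbers. In the single-end run a fit with a replicate block gave 3957 calls, against 6627 in the fit reported. A fit of only wild type and Dicer SOM/SOM, without the block, gave 4768. Leaving out the Dicer dMT samples thus lowered the count by itself. Same-numbered samples had correlations of -0.01, 0.04 and -0.04, within the -0.07 to 0.06 of differently numbered samples. These values gave no sign that the numbers pair the samples, but so few samples cannot settle it.

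With 2 RNAi mutants, the exact test of a single gene cannot reach 0.05, and genes under 1 CPM had a median standard error of 0.762 against 0.163 over 100 CPM, so small changes of low genes were not detectable at this depth.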
